A study of Homo sapiens with 5 samples.

Results

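The genes described here are CALB1, CALB2, PVALB, SCGN, NECAB1, NECAB2 and HPCAL1, 7 calcium-binding protein genes that are used to tell neuron subtypes apart. They were taken by symbol, and all 7 were found in both gene tables of the series, of 33538 genes for D22, D24 and D26 and of 36601 genes for the earlier days. The study differentiated WA09, a wild-type human embryonic stem cell line, towards neurons that make gonadotropin-releasing hormone (GnRH), and sequenced single cells from 3′ ends on a droplet system. D0 holds cells of day 0. D5_dSMADi and D10_dSMADi had received dual SMAD inhibition with dorsomorphin and SB431542, which block BMP and TGF-beta receptors, and D5_XAV939 and D10_XAV939 had in addition received 10 µM XAV939, a tankyrase inhibitor that lowers Wnt signalling. D22, D24 and D26 came from the protocol without XAV939, in which dual SMAD inhibition is followed by FGF8, a freeze and thaw of the progenitors, and then by the Notch pathway inhibitor DAPT. All 8 libraries share the cell line. The cells of D0, D5 and D10 were tagged and mixed before 1 shared sequencing library was made. Each tagged set of cells is called a library here. No condition has a replicate, cells are not replicates, and so no comparison below has a test or a p-value.

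With limits on cell quality taken from the methods of the study, and the complexity limit of D0 read as an upper one, 40512 cells of 44007 barcodes remained. The median cell held 24290.5 to 69455.5 unique molecular identifiers (UMIs, counted RNA molecules) in the 5 early libraries and 7180 to 12179 at D22, D24 and D26, and the libraries held 58073098 to 130440502 UMIs. The early libraries were tagged, pooled in 1 run and counted with a later version of the software than the late ones, so time and run cannot be told apart between D10 and D22. Early and late values are therefore set side by side without a ratio. D22, D24 and D26 are each a separate sample, so day and library cannot be told apart in the ratios between them either. The early libraries shared 0 cell barcodes with each other, which is fixed by sorting the barcodes of 1 pool by tag. The other pairs of libraries shared 1 to 37.

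Calcium enters neurons when they fire, and EF-hand proteins bind it through a helix-loop-helix fold. Some of them act mainly as buffers that shape the calcium signal, such as calbindin (CALB1), calretinin (CALB2) and parvalbumin (PVALB). Others are sensors that change shape and act on partner proteins, such as secretagogin (SCGN), the visinin-like protein HPCAL1 and the NECAB proteins, which carry EF-hands near one end and a monooxygenase-like domain at the other. In the forebrain, calbindin, calretinin, parvalbumin and secretagogin are established labels of GABAergic interneuron classes, and calretinin also labels Cajal-Retzius cells and other glutamatergic neurons. CALB1 has been described in migrating GnRH neurons of several species.

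On GRCh38 with GENCODE 44, HPCAL1 lies at chr2:10302889-10427617, SCGN at chr6:25652201-25701783, CALB2 at chr16:71358713-71390436, NECAB2 at chr16:83968244-84002776 and PVALB at chr22:36800684-36819479. PVALB is on the minus strand and the other 4 are on the plus strand. HPCAL1 and NECAB2 overlap no other annotated gene. CALB2 overlaps the antisense LINC02136 and PVALB an antisense non-coding RNA. SCGN overlaps an unnamed protein-coding gene on its own strand and the antisense pseudogene PRELID1P2, which neither gene table lists.

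The start regions of SCGN, HPCAL1 and PVALB are shown, the 3 members that were matched in the RefSeq table, to set beside their patterns. SCGN separated the neuron classes by the widest ratio of the members, HPCAL1 was the most even across those of D24 and D26, and PVALB was near or at 0 in the neurons. Each run has 300 bases around the RefSeq start on GRCh38.p14, most of them before it, and is written 5′ to 3′ on the strand of the gene. They are chr6:25651965-25652264 for SCGN, chr2:10302654-10302953 for HPCAL1 and chr22:36819450-36819749 for PVALB. HPCAL1 has 3 starts in the RefSeq table and PVALB has 2, and the start nearest to that of the gene was taken. Capitals mark the GC box GGGCGG and its reverse complement CCGCCC.
SCGN: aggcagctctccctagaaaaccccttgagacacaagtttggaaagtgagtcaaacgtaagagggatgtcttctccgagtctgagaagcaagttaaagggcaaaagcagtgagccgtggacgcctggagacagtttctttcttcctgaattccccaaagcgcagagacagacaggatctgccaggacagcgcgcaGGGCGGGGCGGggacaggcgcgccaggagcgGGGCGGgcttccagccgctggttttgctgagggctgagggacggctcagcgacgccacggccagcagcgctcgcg
HPCAL1: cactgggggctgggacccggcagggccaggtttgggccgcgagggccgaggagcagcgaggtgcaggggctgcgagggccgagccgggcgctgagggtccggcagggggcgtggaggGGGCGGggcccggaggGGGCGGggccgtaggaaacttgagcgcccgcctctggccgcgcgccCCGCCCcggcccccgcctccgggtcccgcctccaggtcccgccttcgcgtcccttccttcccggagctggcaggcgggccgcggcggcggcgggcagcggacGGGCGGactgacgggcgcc
PVALB: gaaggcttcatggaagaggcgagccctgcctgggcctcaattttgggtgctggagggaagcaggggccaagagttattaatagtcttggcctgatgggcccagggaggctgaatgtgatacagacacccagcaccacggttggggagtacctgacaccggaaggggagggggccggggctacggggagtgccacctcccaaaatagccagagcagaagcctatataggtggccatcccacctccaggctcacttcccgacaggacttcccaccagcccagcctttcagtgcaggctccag
The SCGN run holds 3 GC boxes, one of which overlaps the next, the HPCAL1 run holds 4 and the PVALB run holds 0, while 45.0% of 35116 RefSeq start regions of this length hold at least 1. Their GC content is 60.7%, 81.3% and 60.3% against a median of 58.7%, and they hold 21, 40 and 6 CpG dinucleotides against a median of 14.0. The homeodomain core TAATTA, the letters that DLX factors are known to prefer, occurs in 4.84% of all start regions and in 0 of these 3. The exact TATA box letters TATAAA occur in 11.5% and in 0 of these 3. Variants of the TATA box were not counted, and the PVALB run holds the letters tatata. These counts describe letters in a short window on both strands and say nothing about binding elsewhere.

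Levels are given in CPM, a depth-scaled unit for which the UMIs of a gene are added up over all cells of a library or class and divided by all UMIs of those cells. Their 95% intervals are exact Poisson intervals of the UMI count. The 95% interval of a ratio of levels comes from the exact binomial interval of how its UMIs divide between both groups. Both intervals cover counting error only and treat UMIs as independent, so they understate the spread of a gene whose UMIs sit in a small number of cells. Reads come from 3′ ends, so levels are compared between groups and not between genes.

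Cells of D24 and D26 were sorted by the transcripts that define the culture's neuron types. GNRH1-high means at least 3000 CPM of GNRH1 in the cell, DLX-positive means at least 3 UMIs of DLX1, DLX2 and DLX5 together, which are homeobox factors of GABAergic neurons, and TBR1/PPP1R17-positive means at least 3 UMIs of these markers of the glutamatergic neurons of the culture. Cells in the last class that were also GNRH1-high or DLX-positive were kept apart as mixed. D24 held 193 GNRH1-high DLX-positive, 119 GNRH1-high DLX-negative, 133 GNRH1-low DLX-positive, 5345 TBR1/PPP1R17-positive, 3271 neither and 46 mixed cells. D26 held 636, 192, 591, 7462, 1886 and 289 cells in the same order. Mixed cells had median depths of 15200.5 UMIs at D24 and 17104 at D26, against 6578 to 9519 in the other classes of both days, and whether they are doublets was not tested.

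The named neuron classes carried the markers of their types, and GNRH1-high DLX-negative cells also carried GABAergic ones. DLX-negative means fewer than 3 UMIs of DLX1, DLX2 and DLX5 together, which does not show that these are absent. The summed level of 7 GABAergic neuron genes was 1117 CPM in GNRH1-high DLX-positive, 766 CPM in GNRH1-high DLX-negative and 1312 CPM in GNRH1-low DLX-positive cells of D26, against 6.95 CPM in TBR1/PPP1R17-positive and 80.6 CPM in neither cells. The summed level of 7 glutamatergic neuron genes was 47.1, 149 and 42.8 CPM in those classes, against 1050.2 and 720.2 CPM, and SLC17A7 had 1 UMI in all of them together. The summed level of 6 neuron genes was 9974 to 13493 CPM over the 10 classes of D24 and D26. The labels call D22 neuron as well, yet its 6 neuron genes summed to 2387 CPM and its 6 neural progenitor genes to 4426 CPM, against 488 CPM of the progenitor genes at D24 and 334 CPM at D26. D0 is labelled neural progenitor along with the other tagged libraries, and its 3 pluripotency genes summed to 1794 CPM.

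Secretagogin was the member that most sharply set the GABAergic classes of the culture apart. SCGN had 1 UMI at D0, 1 in D5_dSMADi, 0 in D5_XAV939, 11 in D10_dSMADi and 10 in D10_XAV939. Its level was 1.49 CPM (1.29 to 1.72) at D22, 5.17 CPM (4.66 to 5.74) at D24 and 37.9 CPM (36.7 to 39.1) at D26. The 3 late intervals did not overlap each other, while those of neighbouring early libraries did. At D22 SCGN already stood at 14.3 CPM (12.1 to 16.7) in the 748 DLX-positive cells, against 0 UMIs in the 775 TBR1/PPP1R17-positive cells and 0.289 CPM (0.179 to 0.442) in the 5868 cells of neither kind that were not dividing. The 9 cells of D22 that were both DLX-positive and TBR1/PPP1R17-positive were kept apart as mixed, so the 0 leaves them out. Of these mixed cells, 2 had at least 3 SCGN UMIs. A small number of cells carried it: 41 of the 748 DLX-positive cells (5.48%) had a SCGN UMI, and 7 held 46.8% of the 154 UMIs. With the class at 0 set to a floor of 3 UMIs, the level in DLX-positive cells was 48.6-fold higher than in TBR1/PPP1R17-positive cells. The exact interval of that ratio starts at 39.1-fold, and both values leave out the mixed cells. Against the other cells, the level in DLX-positive cells was 49.3-fold (31.2 to 82.0) higher.

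At D24 the SCGN level was 66.2 CPM (54.4 to 79.8) in GNRH1-high DLX-positive, 49.3 CPM (35.9 to 65.9) in GNRH1-high DLX-negative and 139 CPM (118 to 163) in GNRH1-low DLX-positive cells. It was 0.0919 CPM (4 UMIs) in TBR1/PPP1R17-positive and 1.17 CPM in neither cells, and of these classes only the GNRH1-high ones overlapped each other. At D26 the same classes stood at 310.0 CPM (296 to 324), 90.4 CPM (75.7 to 107), 205 CPM (193 to 218), 1.13 CPM (0.891 to 1.41) and 10.8 CPM (9.05 to 12.7), and no 2 of these intervals overlapped. With the GNRH1 limit of 3000 CPM, the order of the DLX-positive classes thus differed between the days. The GNRH1-low cells were higher at D24 and the GNRH1-high cells higher at D26. With a GNRH1 limit of 10000 CPM these classes were nearly level at D26. From D24 to D26 the level was 4.68-fold (3.86 to 5.73) higher in GNRH1-high DLX-positive cells, 1.83-fold (1.30 to 2.63) higher in GNRH1-high DLX-negative cells and 1.47-fold (1.24 to 1.75) higher in GNRH1-low DLX-positive cells. In the other classes few cells carried SCGN. The TBR1/PPP1R17-positive cells had 4 UMIs at D24 and 78 at D26, of which 1 cell held 21, and this level near 1 CPM was not told apart from free RNA. In neither cells the level was 9.23-fold (6.03 to 14.6) higher at D26, where 19 of 1886 cells held 89.1% of the 137 UMIs and 32 had any.

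SCGN was also found in more cells of the GABAergic classes. A UMI was present in 53.3% of GNRH1-high DLX-positive cells of D26 (median depth 9519 UMIs) and in 0.643% of TBR1/PPP1R17-positive cells (median depth 8653.5 UMIs). After each cell was thinned to 1500 UMIs, the depth that every kept cell of these days reached, these shares were 27.7% (24.2 to 31.3) and 0.161% (0.0831 to 0.281), and that of GNRH1-low DLX-positive cells was 16.9% (14.0 to 20.2). At D24 the thinned shares were 8.81% (5.22 to 13.7) in GNRH1-high DLX-positive cells, 16.5% (10.7 to 24) in GNRH1-low DLX-positive cells and 0 of 5345 TBR1/PPP1R17-positive cells (upper bound 0.0690% in thinned cells), of which 4 had a SCGN UMI at full depth. Each thinned share comes from 1 random draw, and its interval leaves out the spread between draws. Another draw, used below for pairs of members, found SCGN at D24 in 2 of the 5345 TBR1/PPP1R17-positive cells. It found SCGN in 19.5% of the GNRH1-low DLX-positive cells of that day. Within a class the cells differed widely, up to 55 UMIs in 1 cell. The GNRH1-high DLX-positive cells, 5.75% of D26, held 49.6% of its SCGN UMIs, the GNRH1-low DLX-positive cells (5.35%) held 27.9% and the mixed cells (2.61%) held 13.3%. The TBR1/PPP1R17-positive cells, 67.5% of the library, held 2.07%.

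Of the fixed markers of interneuron subtypes, SP8, a factor of olfactory bulb and caudal interneurons, stood at 55.9 CPM (50.1 to 62.2) in GNRH1-high DLX-positive and 45.7 CPM (40.0 to 51.9) in GNRH1-low DLX-positive cells of D26. It was 22.4 CPM in GNRH1-high DLX-negative, 2.98 CPM in TBR1/PPP1R17-positive and 6.77 CPM in neither cells. VIP, NPY and CCK had 0 UMIs in both DLX-positive classes. SST had 16 and 80 UMIs in them, NKX2-1 had 0 and 36, LHX6 had 0 and 1, PROX1 had 15 and 23, and TH had 6 and 16.

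**Figure D1:**
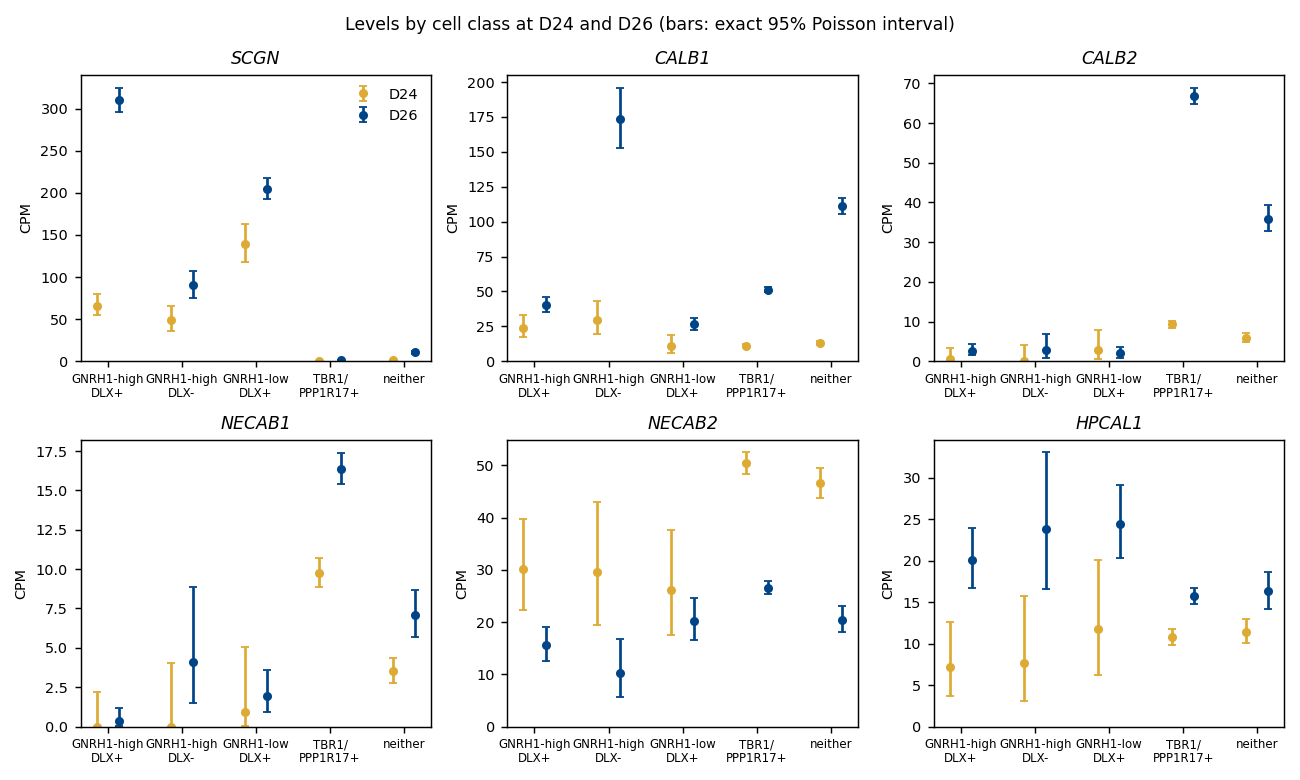
Levels (CPM, linear axes that differ between panels) of the 6 members other than PVALB in 5 classes of D24 (yellow) and D26 (blue), with exact 95% Poisson intervals. SCGN is high in the classes with GNRH1 or DLX transcripts, CALB2 and NECAB1 in the TBR1/PPP1R17-positive cells, and HPCAL1 differs little. CALB1 at D26 is highest in GNRH1-high DLX-negative cells, at 173 CPM.

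Calbindin was shared by the neuron classes rather than kept to one of them. The gene lies at chr8:90058608-90095475 on the minus strand and overlaps no other annotated gene. CALB1 stood at 21.4 CPM (20.3 to 22.4) at D0 and then at 0.414 CPM in D5_dSMADi, 0.381 CPM in D5_XAV939, 0.571 CPM in D10_dSMADi and 0.499 CPM in D10_XAV939, whose intervals overlapped. It stood at 12.6 CPM (12 to 13.2) at D22, 12.4 CPM (11.6 to 13.3) at D24 and 58.7 CPM (57.2 to 60.2) at D26, so D22 and D24 did not differ beyond counting error and D26 was higher. In D5_dSMADi it was 51.6-fold (36.6 to 75.2) lower than at D0. At D22 it was 11.8 CPM in dividing cells (at least 3 UMIs of MKI67 and TOP2A), 13.5 CPM in DLX-positive cells and 13.6 CPM in the others, and 7.72 CPM (6.11 to 9.62) in TBR1/PPP1R17-positive cells.

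At D24 CALB1 stood at 24.1 CPM (17.2 to 32.8) in GNRH1-high DLX-positive, 29.6 CPM (19.5 to 43.0) in GNRH1-high DLX-negative, 10.8 CPM (5.60 to 18.9) in GNRH1-low DLX-positive, 11.1 CPM (10.2 to 12.2) in TBR1/PPP1R17-positive and 12.9 CPM (11.4 to 14.5) in neither cells. Both GNRH1-high classes were above the TBR1/PPP1R17-positive cells. At D26 the values were 40.5 CPM (35.5 to 45.9), 173 CPM (153 to 196), 26.4 CPM (22.1 to 31.2), 51.2 CPM (49.5 to 52.9) and 111 CPM (106 to 117), and no 2 intervals overlapped. The GNRH1-high DLX-negative cells were thus 4.28-fold (3.58 to 5.12) above the GNRH1-high DLX-positive cells at D26, where at D24 the ratio was 1.23-fold (0.725 to 2.05). Few cells carried much of this signal: 2 of the 192 GNRH1-high DLX-negative cells held 24.7% of the CALB1 UMIs of their class, 19 of the 1886 neither cells held 32.3%, and 6 of the 591 GNRH1-low DLX-positive cells held 43.0%. In cells thinned to 1500 UMIs, a CALB1 UMI was found in 16.1% (11.2 to 22.1) of GNRH1-high DLX-negative cells, 8.80% (7.56 to 10.2) of neither cells, 6.71% (6.16 to 7.31) of TBR1/PPP1R17-positive cells, 2.54% (1.43 to 4.15) of GNRH1-low DLX-positive cells and 4.56% (3.07 to 6.48) of GNRH1-high DLX-positive cells. The class with the highest level also had the highest summed level of the 6 neural progenitor genes at D26, 988 CPM against 220.2 to 731 CPM in the other 4 classes. Those classes did not keep the order of CALB1. The sum of 731 CPM was in GNRH1-low DLX-positive cells, where CALB1 was lowest. Neither cells, where CALB1 was next highest, had 551 CPM. At D24 the highest sum, 1087 CPM, was in GNRH1-high DLX-positive cells. The part of the progenitor genes in the CALB1 level was not tested. From D24 to D26 CALB1 was 4.60-fold (4.18 to 5.07) higher in TBR1/PPP1R17-positive cells, 8.63-fold (7.59 to 9.83) higher in neither cells, 5.86-fold (3.93 to 9.07) higher in GNRH1-high DLX-negative cells, 2.43-fold (1.35 to 4.82) higher in GNRH1-low DLX-positive cells and 1.68-fold (1.20 to 2.41) higher in GNRH1-high DLX-positive cells.

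Calretinin followed the glutamatergic class. CALB2 stood at 1.98 CPM (1.67 to 2.32) at D0, had 5 to 15 UMIs in each of the 4 libraries of D5 and D10, and stood at 0.376 CPM (0.278 to 0.497) at D22, 7.85 CPM (7.21 to 8.54) at D24 and 53.1 CPM (51.7 to 54.6) at D26. The late libraries did not overlap each other. At D22, 41 of its 49 UMIs were in the 775 TBR1/PPP1R17-positive cells, at 4.01 CPM (2.88 to 5.44), and 2 were in the 748 DLX-positive cells. At D24 CALB2 was 9.31 CPM (8.42 to 10.3) in TBR1/PPP1R17-positive and 5.93 CPM (4.96 to 7.03) in neither cells, with 1, 0 and 3 UMIs in the classes with GNRH1 or DLX transcripts. At D26 it was 66.8 CPM (64.9 to 68.8) and 36.0 CPM (32.7 to 39.4), against 2.65 CPM (1.52 to 4.31) in GNRH1-high DLX-positive, 2.72 CPM (0.741 to 6.96) in GNRH1-high DLX-negative and 1.95 CPM (0.936 to 3.59) in GNRH1-low DLX-positive cells. The last 3 overlapped, and the TBR1/PPP1R17-positive cells held 87.5% of the CALB2 UMIs of D26. A thinned cell had a CALB2 UMI in 7.71% (7.11 to 8.33) of TBR1/PPP1R17-positive and 0.472% (0.0974 to 1.37) of GNRH1-high DLX-positive cells, whose median depths before thinning were 8653.5 and 9519 UMIs. Within the TBR1/PPP1R17-positive class, CALB2 was 7.18-fold (6.49 to 7.97) higher at D26 than at D24.

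Parvalbumin was at or near 0 in the neurons. PVALB stood at 2.60 CPM (2.25 to 2.98) at D0, 0.778 CPM (0.597 to 0.997) in D5_dSMADi, 0.842 CPM (0.660 to 1.06) in D5_XAV939, 1.32 CPM (1.08 to 1.60) in D10_dSMADi and 0.379 CPM (0.237 to 0.574) in D10_XAV939. At D22 12 UMIs were counted, at D24 only 2, and D26 had 0, where the interval of 0 UMIs reaches 0.0371 CPM. Of the 12 UMIs at D22, 8 were in dividing cells. D0 was the highest of the 8 libraries, and of the late days D24 overlapped both D22 and D26, which did not overlap each other.

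NECAB1, a partner of synaptotagmin 1, was, like CALB2, highest in the TBR1/PPP1R17-positive cells on all 3 late days, mixed cells aside. It lies at chr8:90791741-90959393 on the plus strand, where it overlaps the antisense gene C8orf88 and antisense non-coding RNAs. Its level was 3.58 CPM (3.17 to 4.04) at D0, 0.740 CPM in D5_dSMADi, 0.946 CPM in D5_XAV939, 0.978 CPM in D10_dSMADi and 0.723 CPM in D10_XAV939, and it was 0.782 CPM (0.638 to 0.949) at D22, 7.23 CPM (6.61 to 7.88) at D24 and 13.0 CPM (12.3 to 13.7) at D26. D26 and D24 were the highest and did not overlap, and the intervals of D5, D10 and D22 overlapped. At D22 its level was 6.35 CPM (4.90 to 8.10) in TBR1/PPP1R17-positive cells, 7.63-fold (3.78 to 17.4) above that in DLX-positive cells. At D24 it was 9.74 CPM (8.84 to 10.7) in TBR1/PPP1R17-positive and 3.51 CPM (2.77 to 4.37) in neither cells, with 0 UMIs in both GNRH1-high classes and 1 in GNRH1-low DLX-positive cells. At D26 the TBR1/PPP1R17-positive cells stood at 16.4 CPM (15.4 to 17.3) and held 87.4% of the UMIs of the gene. The neither cells stood at 7.08 CPM (5.69 to 8.70), the GNRH1-high DLX-negative cells at 4.08 CPM (1.5 to 8.87), the GNRH1-low DLX-positive cells at 1.95 CPM (0.936 to 3.59) and the GNRH1-high DLX-positive cells at 0.332 CPM (0.0402 to 1.20), and of these neighbours in the order each overlapped the next.

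NECAB2, a partner of adenosine and metabotropic glutamate receptors, had a time course of its own. It stood at 7.17 CPM (6.58 to 7.80) at D0, 22.5 CPM (21.5 to 23.6) in D5_dSMADi, 18.4 CPM (17.5 to 19.4) in D5_XAV939, 24.6 CPM (23.5 to 25.7) in D10_dSMADi and 41.6 CPM (40.0 to 43.3) in D10_XAV939, then at 9.09 CPM (8.58 to 9.62) at D22, 47.9 CPM (46.3 to 49.6) at D24 and 24.3 CPM (23.3 to 25.2) at D26. D24 was the highest of the late libraries and D10_XAV939 the highest of the early ones. At D22 it was 37.4 CPM (33.8 to 41.4) in TBR1/PPP1R17-positive cells, 7.49-fold (5.62 to 10.2) above DLX-positive cells at 5.0 CPM (3.75 to 6.52). At D24 the classes lay closer together, with 50.4 CPM (48.3 to 52.6) in TBR1/PPP1R17-positive, 46.6 CPM (43.8 to 49.6) in neither, 30.1 CPM (22.3 to 39.7) in GNRH1-high DLX-positive, 29.6 CPM (19.5 to 43.0) in GNRH1-high DLX-negative and 26.2 CPM (17.5 to 37.6) in GNRH1-low DLX-positive cells. At D26 they stood at 26.6, 20.5, 15.6, 10.2 and 20.3 CPM in that order, and only the TBR1/PPP1R17-positive interval, 25.4 to 27.8 CPM, was clear of the next class. From D24 to D26 the level was 1.90-fold (1.78 to 2.02) lower in TBR1/PPP1R17-positive cells, 2.28-fold (1.99 to 2.62) lower in neither cells, 1.93-fold (1.34 to 2.75) lower in GNRH1-high DLX-positive cells and 2.90-fold (1.49 to 5.86) lower in GNRH1-high DLX-negative cells, while in GNRH1-low DLX-positive cells it was 1.29-fold lower (0.824 to 1.96), which counting error spans.

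HPCAL1, a sensor of the visinin-like family that moves to membranes when it binds calcium, was the most even of the detected members over the classes of D24 and D26. It stood at 5.56 CPM (5.04 to 6.12) at D0, 3.36 CPM (2.97 to 3.79) in D5_dSMADi, 3.14 CPM (2.77 to 3.53) in D5_XAV939, 4.68 CPM (4.22 to 5.19) in D10_dSMADi and 5.73 CPM (5.13 to 6.38) in D10_XAV939, then at 8.17 CPM (7.69 to 8.68) at D22, 10.8 CPM (10.1 to 11.6) at D24 and 16.9 CPM (16.1 to 17.7) at D26. The late libraries did not overlap each other. At D22 it was 15.0 CPM (12.7 to 17.5) in TBR1/PPP1R17-positive, 10.00 CPM (8.20 to 12.1) in DLX-positive, 7.03 CPM (6.20 to 7.95) in dividing and 7.50 CPM (6.88 to 8.16) in other cells, a wider spread than that of CALB1 there. At D24 its 5 classes ranged from 7.22 to 11.7 CPM and at D26 from 15.7 to 24.4 CPM, and on both days every class overlapped its neighbour in the order. The ends of the D26 order, TBR1/PPP1R17-positive and GNRH1-low DLX-positive cells, did not overlap each other.

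**Figure D2:**
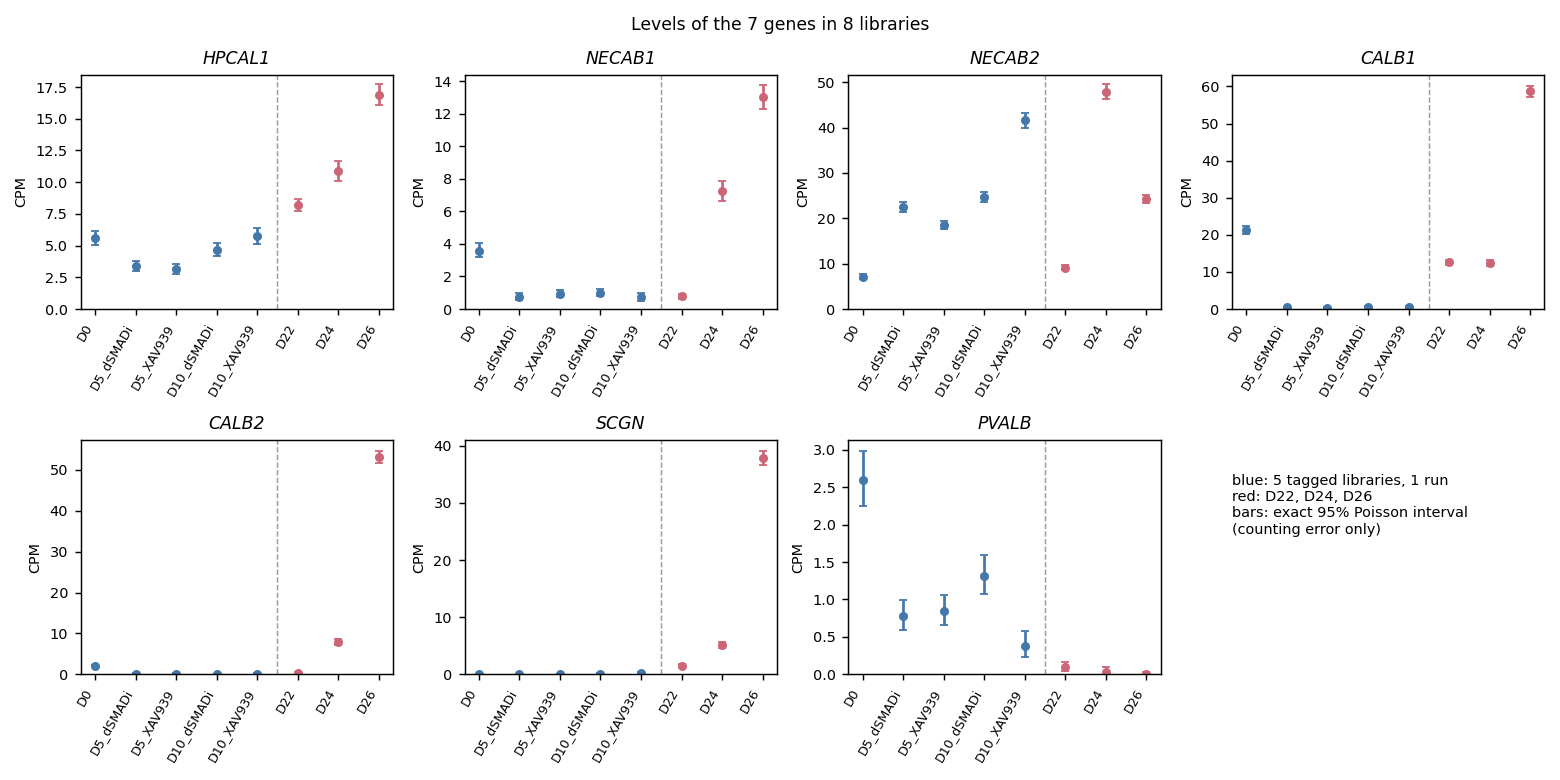
Levels (CPM, linear axes that differ between panels) of the 7 members in 8 libraries, 5 early ones in blue and D22, D24 and D26 in red, with exact 95% Poisson intervals. The dashed line parts the tagged pool from D22, D24 and D26. SCGN and CALB2 reach 37.9 and 53.1 CPM at D26 and stay under 2 CPM in the early libraries, NECAB2 peaks at D24 with 47.9 CPM, and PVALB is highest at D0 with 2.60 CPM.

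The study sets its GnRH neurons against the glutamatergic neurons of the culture. Between GNRH1-high DLX-positive and TBR1/PPP1R17-positive cells, 4 of the 6 members with at least 50 UMIs over the classes were at least 2-fold apart at D24, 2 higher and 2 lower, where 18.1% of the 12700 genes tested were. At D26 it was 3 of 6, 1 higher and 2 lower, where 13.5% of 13782 genes were. SCGN was higher on both days, by a log2 ratio of 9.49 (8.10 to 11.39) at D24, from 110 and 4 UMIs, and of 8.10 (7.78 to 8.45) at D26. CALB2 was lower on both days, by a log2 ratio of -3.95 (-9.26 to -1.46) at D24, from 1 and 405 UMIs, and of -4.65 (-5.46 to -3.95) at D26. NECAB1 was 5.40-fold lower at D24 with a floor of 3 UMIs standing in for the 0 UMIs of GNRH1-high DLX-positive cells. It had a log2 ratio of -5.62 (-8.67 to -3.77) at D26, from 2 and 1132 UMIs.

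CALB1 was 2.16-fold (1.53 to 2.99) higher in GNRH1-high DLX-positive cells at D24 and 1.26-fold (1.11 to 1.45) lower at D26. NECAB2 was 1.68-fold (1.27 to 2.26) and 1.71-fold (1.39 to 2.12) lower on the 2 days. HPCAL1 had a ratio of 0.672 (0.345 to 1.18) at D24, which counting error spans, and was 1.28-fold (1.05 to 1.54) higher at D26. The median log2 ratio of the members tested was -0.57 at D24, or -0.66 with NECAB1 at its floor, and -0.55 at D26, against -0.20 and -0.14 over all genes tested. Of all genes called at D24, 401 were higher and 1894 lower, and with scaling by the median ratio of genes these were 564 and 1481.

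How mixed cells are handled moved the sizes of the lower members. With mixed cells left in their GNRH1 and DLX class, the log2 ratio of CALB2 was -1.16 at D24 and -2.49 at D26 and that of NECAB1 at D26 was -2.94, and with cells over a Scrublet doublet score of 0.25 removed that of CALB2 at D26 was -6.01. The SCGN ratio at D24 rests on 4 UMIs in the TBR1/PPP1R17-positive cells, and over the alternatives it ran from 8.27 with a DLX limit of 5 UMIs to 10.40 with those cells removed.

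**Figure D3:**
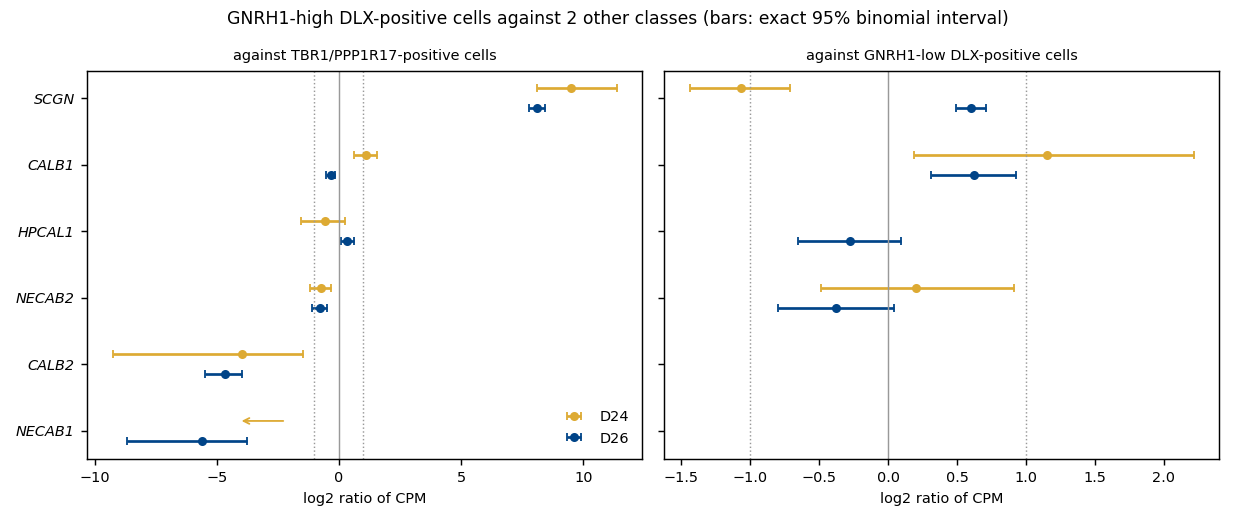
Log2 ratios of levels between GNRH1-high DLX-positive cells and 2 other classes at D24 (yellow) and D26 (blue), with exact 95% binomial intervals, for members with at least 50 UMIs over the 2 classes. Dotted lines mark 2-fold, and the arrow marks NECAB1 at D24, which had 0 UMIs in the GNRH1-high cells. SCGN lies far to the right against TBR1/PPP1R17-positive cells, at 9.49 and 8.10, and on opposite sides of 0 on the 2 days against GNRH1-low DLX-positive cells, at -1.07 and 0.60. With a GNRH1 limit of 10000 CPM this last D26 ratio was near 0.

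Within the DLX-positive cells, those with high GNRH1 were set against those without. At D24, 2 of the 3 members with enough UMIs were at least 2-fold apart, where 1.87% of 5184 genes were. SCGN was 2.10-fold (1.63 to 2.71) lower and CALB1 2.22-fold (1.14 to 4.65) higher in GNRH1-high cells, and NECAB2 had a ratio of 1.15 (0.713 to 1.88). At D26, 0 of 4 members were 2-fold apart, where 1.19% of 9955 genes were. SCGN was 1.51-fold (1.40 to 1.63) and CALB1 1.54-fold (1.24 to 1.91) higher in GNRH1-high cells, while HPCAL1 at 0.822 (0.635 to 1.06) and NECAB2 at 0.768 (0.575 to 1.02) were spanned by counting error. The members' median log2 ratio was 0.20 at D24 and 0.16 at D26, against 0.00 and -0.04 over all genes tested. Both D24 calls sat near the limit. With a GNRH1 limit of 10000 CPM the log2 ratio of SCGN was -0.77 in place of -1.07, and with a DLX limit of 5 UMIs that of CALB1 was 0.91 in place of 1.15. At D26 the GNRH1 limit of 10000 CPM left SCGN nearly level between these classes.

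Between the late days, 4 of 6 members were at least 2-fold higher at D24 than at D22 and 0 were lower, where 29.9% of 16188 genes were 2-fold apart. These were CALB2 at 20.9-fold (15.6 to 28.6), NECAB1 at 9.24-fold (7.46 to 11.5), NECAB2 at 5.27-fold (4.93 to 5.63) and SCGN at 3.46-fold (2.90 to 4.14). HPCAL1 was 1.33-fold (1.21 to 1.46) higher, and CALB1 had a ratio of 0.985 (0.906 to 1.07). Between D26 and D24, 3 of 6 members were at least 2-fold higher and 0 were lower, where 14.8% of 15619 genes were 2-fold apart. These were SCGN at 7.32-fold (6.57 to 8.17), CALB2 at 6.77-fold (6.20 to 7.40) and CALB1 at 4.73-fold (4.41 to 5.09). NECAB1 was 1.80-fold (1.62 to 2.00) and HPCAL1 1.56-fold (1.43 to 1.70) higher, and NECAB2 was 1.97-fold (1.87 to 2.08) lower. A library's level mixes the level within classes with the shares of the classes, which also differ between the days.

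The members' median log2 ratio was 2.09 for D24 against D22 and 1.55 for D26 against D24, beside -0.11 and 0.31 over all genes tested. Relative to the shift of the median gene between D24 and D26, SCGN stood at 2.56, CALB2 at 2.45, CALB1 at 1.94, NECAB1 at 0.54, HPCAL1 at 0.33 and NECAB2 at -1.29 on the log2 scale, so NECAB2 was then past 2-fold. Of all genes called for D26 against D24, 1548 were higher and 762 lower, and with this scaling 728 were higher and 1253 lower.

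From D0 to D5_dSMADi, 5 of 6 members were at least 2-fold apart, 4 of them lower, where 34.4% of 16436 genes were. CALB1 was 51.6-fold (36.6 to 75.2), CALB2 10.5-fold (6.17 to 19.2), NECAB1 4.84-fold (3.64 to 6.53) and PVALB 3.34-fold (2.50 to 4.51) lower, and NECAB2 was 3.14-fold (2.85 to 3.46) higher. HPCAL1 was 1.65-fold (1.42 to 1.93) lower. From D5_dSMADi to D10_dSMADi, 0 of 5 members were 2-fold apart, where 13.1% of 16269 genes were, and PVALB at 1.70-fold (1.23 to 2.36) and HPCAL1 at 1.39-fold (1.19 to 1.64) were higher. The members' median log2 ratios were -2.01 and 0.46, beside -0.14 and 0.23 over all genes. NECAB2 at D10 against D5 had a log2 ratio of 0.13, which became -0.10 when scaled by the median ratio of genes. Of all genes called there, 1666 were higher and 465 lower, and with that scaling 1148 and 694.

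XAV939 was added to ask what Wnt inhibition does during neural induction. At D5, 0 of 5 members were 2-fold apart between D5_XAV939 and D5_dSMADi, where 3.43% of 15966 genes were, and NECAB2 was 1.22-fold (1.14 to 1.31) lower with XAV939. The ratios of HPCAL1 at 0.933 (0.785 to 1.11), NECAB1 at 1.28 (0.903 to 1.82), CALB1 at 0.919 (0.550 to 1.54) and PVALB at 1.08 (0.761 to 1.54) were spanned by counting error. At D10, 1 of 5 members was 2-fold apart, where 7.22% of 16077 genes were. PVALB was 3.49-fold (2.18 to 5.80) lower with XAV939, from 22 and 104 UMIs. NECAB2 was 1.69-fold (1.59 to 1.80) and HPCAL1 1.22-fold (1.05 to 1.42) higher, while NECAB1 at 0.740 (0.495 to 1.09) and CALB1 at 0.874 (0.528 to 1.42) were spanned by counting error. SCGN and CALB2 had 5 to 11 UMIs in each D10 library, too few for a ratio. The members' median log2 ratio was -0.10 at D5 and -0.19 at D10, beside 0.05 and 0.00 over all genes.

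A few cells of D10 had neuron-like levels of STMN2, a microtubule regulator of growing axons, at 1000 CPM or more, namely 17 in D10_dSMADi and 66 in D10_XAV939. HPCAL1 stood at 31.3 CPM (11 UMIs) in the former, 6.85-fold (3.39 to 12.4) above the other cells of the library, and at 11.0 CPM (18 UMIs) in the latter, 1.96-fold (1.15 to 3.15) above. CALB1 had 7 UMIs in these cells of D10_XAV939, at 4.26 CPM (1.71 to 8.77) against 0.390 CPM (0.244 to 0.590), and 0 in those of D10_dSMADi. NECAB2 had 45.6 CPM (35.9 to 57.2) in these cells of D10_XAV939 and 41.5 CPM (39.8 to 43.2) in the others, which overlapped, and in D10_dSMADi it had a ratio of 0.808 (0.324 to 1.67) from 7 UMIs. CALB2 had 3 UMIs in these cells of D10_dSMADi against 2 in all others, at 8.53 CPM (1.76 to 24.9) against 0.0255 CPM (0.00309 to 0.0921), and 2 against 5 in D10_XAV939, a ratio of 13.7 (1.31 to 83.9) whose interval is wide.

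A fixed list of 32 further EF-hand genes of neurons gives the setting of the members. Between GNRH1-high DLX-positive and TBR1/PPP1R17-positive cells, 3 of 24 were at least 2-fold higher and 8 lower at D24, where 18.1% of all genes tested were apart, and 4 of 24 higher and 4 lower at D26, where 13.5% were. KCNIP1, a subunit of A-type potassium channels, had log2 ratios of 2.16 (1.23 to 2.99) and 1.43 (1.11 to 1.73), and the neuronal sensor HPCA had 1.21 (0.04 to 2.19) and 1.62 (1.11 to 2.11). TESC, which binds the sodium-proton exchanger NHE1, had 1 and 528 UMIs at D24 and 0 and 608 UMIs at D26 and was lower on both days. CIB2, a component of the mechanotransduction channel of hair cells, had a log2 ratio of -1.05 (-1.21 to -0.89) at D26. Between GNRH1-high and GNRH1-low DLX-positive cells, 0 of 10 were apart at D24 and 1 of 19, S100A10, at D26, beside 1.87% and 1.19% of all genes.

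From D22 to D24, 7 of 28 genes of the list were higher and 5 lower, where 29.9% of all genes were apart, with a list median of 0.47 on the log2 scale beside -0.11 over all genes. Among them were HPCAL4 at a log2 ratio of 3.34 (2.80 to 3.92), NCALD at -1.53 (-1.60 to -1.46) and EFHD1 at -2.38 (-3.08 to -1.74). From D24 to D26, 6 of 29 were higher and 5 lower, where 14.8% of all genes were apart, with a list median of 0.07 beside 0.31. VSNL1 stood at 2.90 (2.57 to 3.25) and HPCAL4 at 2.88 (2.66 to 3.11), and CABP7 at -5.11 (-5.83 to -4.46) and S100A6 at -4.93 (-6.08 to -3.97). From D0 to D5_dSMADi, 3 of 27 were higher and 9 lower beside 34.4% of all genes apart, and from there to D10_dSMADi, 6 of 25 were higher and 3 lower beside 13.1%. With XAV939, 1 of 24 was higher (KCNIP1) and 1 lower (VSNL1) at D5 beside 3.43% of all genes, and 3 of 28 were higher (CABP7, KCNIP4 and TESC) and 0 lower at D10 beside 7.22%.

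Cells with at least 3 UMIs of a member show where its transcript is concentrated. At D26, 400 cells (3.62%) were of this kind for SCGN and held 86.9% of its UMIs. Of these 400, 48.8% were GNRH1-high DLX-positive, 27.8% GNRH1-low DLX-positive, 15.5% mixed and 0.750% TBR1/PPP1R17-positive. Their leading genes against the other cells were RASD1, a Ras-related protein, at 9.90-fold and the neuronal factor MEF2C at 8.38-fold (10 CPM added to both sides), followed by DLX1, DLX6-AS1 and GNRH1. For CALB2 there were 592 cells (5.35%), of which 89.4% were TBR1/PPP1R17-positive and 0.169% GNRH1-high DLX-positive, led by the forebrain factor PAX6 at 2.13-fold and the protocadherin PCDH10 at 1.90-fold.

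For CALB1 there were 641 such cells at D26 (5.80%), with 63.7% TBR1/PPP1R17-positive, 21.4% neither, 4.37% GNRH1-high DLX-positive and 4.06% GNRH1-high DLX-negative cells, where these classes make 67.5%, 17.1%, 5.75% and 1.74% of the library. Folds of leading genes here and below have 10 CPM added to both sides, which shrinks them where levels are low. On that scale the leading gene of these CALB1 cells, the cell cycle kinase CDK6, stood 1.70-fold higher (15.3 against 4.90 CPM). It was followed by CA10 at 1.68-fold and WLS, which Wnt secretion needs, at 1.67-fold. For NECAB1 there were 66 cells, 92.4% of them TBR1/PPP1R17-positive, led by the neuropeptide gene ADCYAP1 at 2.41-fold, IPCEF1 at 1.95-fold and MMRN1 at 1.90-fold. HPCAL1 had 13 such cells and PVALB had 0.

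**Figure D4:**
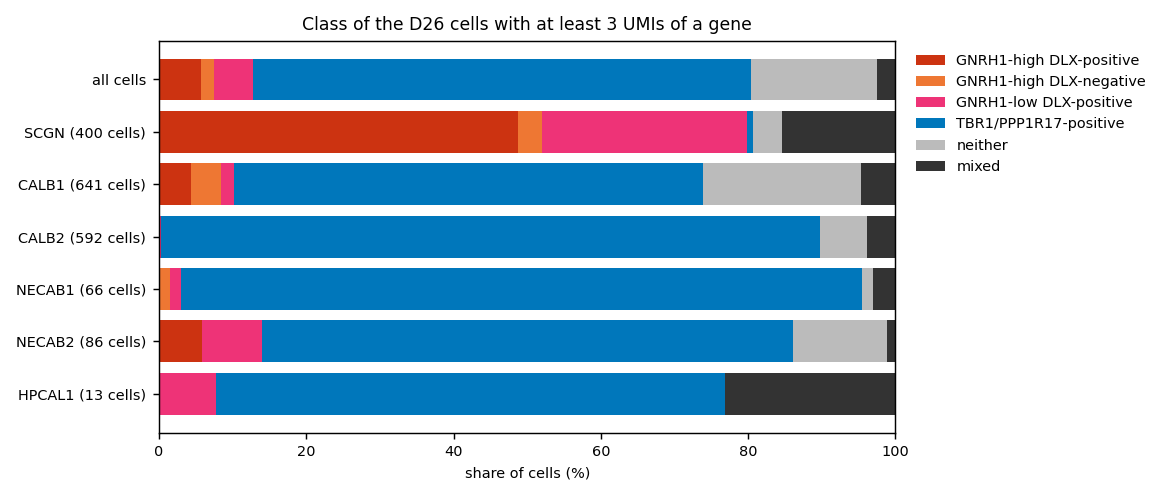
Share (%) of the classes among D26 cells with at least 3 UMIs of a member, under the classes of all D26 cells. The bar of SCGN is mostly GNRH1-high DLX-positive (48.8%) and GNRH1-low DLX-positive cells (27.8%). The bars of CALB2 and NECAB1 are mostly TBR1/PPP1R17-positive (89.4% and 92.4%), and those of CALB1 and SCGN hold every class.

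The members were also compared with every other gene over 16 groups, namely the 5 early libraries, D22 and the 5 classes of D24 and of D26. Among 5091 genes with at least 50 CPM in a group, those closest to SCGN by Pearson correlation of log2(CPM + 10) were DLX6 (r = 0.988), the vesicular GABA transporter SLC32A1 (0.979) and RASD1 (0.966), and those closest to CALB2 were TNIP3 (0.993), CDH12 (0.984) and PCP4L1 (0.977). CALB1 came closest to DEAF1 (0.909), FSCN1 (0.906) and FSD1 (0.888), and NECAB1 to MGAT4C (0.922), PTPRE (0.914) and PSMD14 (0.914). HPCAL1 came closest to ATP6AP1 (0.960), RHOT1 (0.955) and PRR7 (0.951), and NECAB2 to IFI27L1 (0.860), RNF145 (0.835) and TMEM60 (0.768). PVALB stayed under 10 CPM in every group and was not ranked. These are descriptions over groups that share libraries and that pool the tagged run with the late libraries. A difference between the tagged run and the late libraries thus enters every r, and the DLX genes themselves helped to define the classes.

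Members were also looked for together in single cells of D26, thinned to 1500 UMIs. In TBR1/PPP1R17-positive cells, 36 had both CALB1 and CALB2 (0.482%, interval 0.338 to 0.667), and the product of the single shares is 40.6 cells (0.545%). For NECAB2 with CALB2 it was 20 cells beside 21.0, and for CALB1 with SCGN in GNRH1-high DLX-positive cells 10 beside 8.48. In these pairs the interval of the thinned share held the product. In GNRH1-low DLX-positive cells, HPCAL1 and SCGN met in 9 cells (1.52%, interval 0.699 to 2.87) beside 3.91 cells (0.661%), and in TBR1/PPP1R17-positive cells HPCAL1 and NECAB1 met in 0 cells (interval up to 0.0494%) beside 4.31 (0.0578%). Without thinning, the latter pair met in 129 cells beside 111, and the former in 33 beside 35.0, so the thinned counts and those at full depth differ in which way they depart. NECAB2 with CALB2, near the product after thinning, met in 456 cells beside 396 at full depth (6.11%, interval 5.58 to 6.68, beside 5.30%). NECAB2 with SCGN in GNRH1-high DLX-positive cells met in 5 thinned cells beside 3.83, and at full depth in 56 beside 37.8 (8.81%, interval 6.72 to 11.3, beside 5.95%). At full depth in TBR1/PPP1R17-positive cells, HPCAL1 with CALB2 met in 304 cells beside 266, while CALB1 with CALB2 met in 450 beside 477. Cells that differ in depth can lift full-depth counts above the product, and the part of depth was not tested. The pairs named are a selection of those looked at.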

How the data were processed

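The authors deposited raw UMI count matrices of WA09 cells, 1 file set per library, made with Cell Ranger 3.1.0 (D22, D24, D26) and 6.1.2 (tagged pool) on GRCh38, per the file headers. The counts are not normalized. The 5 tagged conditions are deposited under 1 sample label, and which file set is which condition was read from the names of the file sets (day, and N or X) matched to the tag list in that label. Every XAV939 direction rests on this reading. A tag library and the 12 tag features were left out.

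Limits were applied per library as the study prints them, other than for D0: at least 1500 UMIs and 1000 genes, complexity (log10 genes per log10 UMIs) above 0.82 and under 20% mitochondrial UMIs at D22 to D26, and stricter limits of 10000 to 30000 UMIs and 3000 to 5000 genes earlier, with under 10% mitochondrial UMIs. The study prints the complexity limit of D0 as above 0.85, which would keep 1 of 1292 barcodes. It was read here as under 0.85, which keeps 1008, the number of cells the study states for D0. For D5 and D10 the study states 2480, 2919, 2778 and 2638 cells, equal to all deposited barcodes of the file sets read as D5_dSMADi, D5_XAV939, D10_dSMADi and D10_XAV939, while its printed limits kept 2419, 2815, 2416 and 2168 here, so these cells differ from the cells it analysed. UMIs were summed per class and library. Exact Poisson, binomial and Clopper-Pearson 95% intervals were computed in Python 3.11.15 with SciPy 1.17.1, and Scrublet was run in Scanpy 1.11.5. Its automatic threshold marked 410 cells (4.31%) of D22, but 1 of D24 and 0 of D26, where it had not worked, so cells of all 3 were kept in, and cells scored over 0.25 were left out as an alternative. Genes with at least 50 UMIs over a comparison were tested, and called apart at a ratio of 2 or more. The interval was tested on simulated counts drawn independently, as the interval itself assumes. UMIs that sit in a small number of cells were not simulated. Named genes are the members, genes of the fixed cell type marker lists, the EF-hand list genes past this ratio that a result is given for, the leading genes of member-high cells and the closest profiles. Members and lists were chosen with earlier results of these data known. Gene positions are from GENCODE 44 and start regions from RefSeq, matched by symbol for 3 of 7 members.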

Additional observations from a re-analysis of the deposited data

Results flagged for a closer look

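CALB1, SCGN and NECAB2 had ratios in opposite directions at the 2 times of one contrast. These differences were not tested, since no condition has a replicate. For CALB1, GNRH1-high DLX-positive against TBR1/PPP1R17-positive cells gave a log2 ratio of 1.11 at D24 and -0.34 at D26, on levels of 24.1 and 11.1 CPM and then 40.5 and 51.2 CPM. For SCGN, GNRH1-high against GNRH1-low DLX-positive cells gave -1.07 at D24 and 0.60 at D26, and the latter was 0.09 with a GNRH1 limit of 10000 CPM. For NECAB2, XAV939 against dual SMAD inhibition alone gave -0.29 at D5 and 0.76 at D10.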

How the results depend on the processing

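Of 509 ratios of single members recomputed under up to 12 settings, 487 moved by less than their counting interval, 22 moved by more and 0 called ratios reversed. Of 183 recomputed ratios of called members, 179 were still past 2-fold. Part of these ratios could not move. The minimum of 10 UMIs leaves every ratio as it was, and the stricter filter kept the same cells in the early libraries. Both are among the 487 and the 179, so these counts overstate how far the ratios were tried. Between GNRH1-high and GNRH1-low DLX-positive cells of D24 the count of members apart was 2, and it was 1 with cells over a Scrublet score of 0.25 removed, with the mean over cells, with a DLX limit of 5, with a TBR1/PPP1R17 limit of 5 and with a GNRH1 limit of 10000. At D26 the count was 0, and it was 1 (NECAB1) with a minimum of 10 UMIs or with mixed cells left in. Between D10_dSMADi and D5_dSMADi it was 0, and it was 2 (CALB2 and SCGN) with a minimum of 10 UMIs. The complexity limit of D0 was dropped as an alternative chosen after seeing the data, and the count against D5_dSMADi stayed at 5. The signs of 13 uncalled ratios changed. Depth limits CALB2, NECAB1 and HPCAL1 in the small GNRH1-high classes of D24, where they had 0 to 12 UMIs. No paired analysis was possible because each condition is 1 library.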

Other observations

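A small group of D22 had NECAB2 and HPCAL1 levels above the remaining cells. In 54 cells with at least 3 UMIs of CCNO, a gene of cells that become multiciliated, NECAB2 was at 34.8 CPM (22.7 to 51.0) against 8.94 CPM in the other cells, and HPCAL1 was at 24.1 CPM (14.3 to 38.1) against 8.08 CPM. Both overlapped the TBR1/PPP1R17-positive cells of that day, at 37.4 CPM (33.8 to 41.4) and 15.0 CPM (12.7 to 17.5), so they are not particular to this group. At D26 no cell had 3 CCNO UMIs. There, 86 cells had at least 3 NECAB2 UMIs. Of these, 72.1% were TBR1/PPP1R17-positive and 12.8% neither cells, beside 67.5% and 17.1% of the library. With 10 CPM added to both sides, they were led by IFITM3, an interferon-induced membrane protein, at 8.34-fold (82.0 against 1.03 CPM). IGFBP5, an IGF-binding protein, came next at 8.28-fold (82.0 against 1.11 CPM). TPBG, WLS and RSPO3, which act in Wnt signalling, followed at 6.44-fold, 3.78-fold and 3.45-fold. How many of the 86 cells carry each gene was not tested.

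Cells with at least 3 UMIs of the IRX genes, homeobox factors of more caudal neural tissue, numbered 498 at D22, 139 at D24 and 177 at D26. CALB1 was lower in them at D22, at 5.11 CPM (3.68 to 6.91) against 13.1 CPM, and at D26, at 31.1 CPM (23.9 to 39.9) against 59.3 CPM, where 2 cells held 58.7% of these UMIs, but at D24 it was at 9.88 CPM (5.11 to 17.3) against 12.4 CPM, which overlapped. NECAB2 was at 8.15 CPM (6.32 to 10.4) against 9.16 CPM at D22, which overlapped, at 17.3 CPM (10.7 to 26.4) against 48.5 CPM at D24 and at 6.92 CPM (3.78 to 11.6) against 24.6 CPM at D26. CALB2 was at 5.76 CPM (2.32 to 11.9) against 7.89 CPM at D24, which overlapped, and at 14.3 CPM (9.60 to 20.6) against 54.0 CPM at D26, while HPCAL1 was at 15.8 CPM (10.8 to 22.3) against 16.9 CPM.

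The cells with at least 3 CALB1 UMIs differed in their leading genes by day. The 98 such cells of D22 were 56.1% non-dividing cells of neither class and 26.5% dividing cells, close to the 61.6% and 22.3% of the whole library. Folds here have 10 CPM added to both sides. On that scale these cells were led by TAGLN, an actin-binding protein of contractile cells, at 11.2-fold (247 against 13.1 CPM as measured), and by FGF17 at 3.66-fold. The 55 such cells of D24 were led by TPBG at 4.12-fold, SOX2 at 3.21-fold and GNRH1 at 3.14-fold. The leading gene at D26, CDK6, was at 1.70-fold. The SCGN-high cells of D22, 24 in all, were 79.2% DLX-positive.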
